A study of Homo sapiens with 12 samples.

Results

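Line D is a NOMO-1 culture that carries a hairpin against ALKBH5, followed over a time course in actinomycin D and set here against the same cells with a non-targeting hairpin (shNS). It holds 3 libraries, 1 at each of 0, 8 and 12 h, and the comparison adds the 6 shNS libraries, replicates 1 and 2 at each of those times, so that 9 of the 12 samples of the series are used. The members were chosen by the letter D in the headers of the deposited table, which recurs at each time. No label ties that letter to either of the 2 ALKBH5 hairpins, and the libraries of the other hairpin line were left out. NOMO-1 is a human acute myeloid leukaemia cell line of monocytic type. Both arms carry a lentiviral hairpin and went through puromycin selection, per the labels' protocols, and both were taken through the actinomycin D course with 0 h as its start, so no library is of untransduced cells. The labels' treatment text names a lentivirus against FTO and 2 compounds, CS1 and CS2, where the sample titles name ALKBH5 hairpins and actinomycin D. The titles were followed here.

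ALKBH5 is a demethylase of the nucleus that removes N6-methyladenosine (m6A), the most common internal mark of mRNA, from RNA. The mark is written by a complex built around METTL3 and METTL14, and is read by YTH-domain and other binding proteins that steer the splicing, translation and decay of the marked transcripts. ALKBH5 is known as a gene that acute myeloid leukaemia cells depend on, and also as a gene whose own transcription rises in hypoxia. Actinomycin D blocks transcription, so that the fall of an mRNA in the drug is commonly used to follow its decay.

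The libraries of line D were not equally rich in mRNA per unit of spike-in. The deposited value is a normalised signal per gene, here called signal, and its median over 46 ERCC spike-ins was 30.4 to 33.1 in the 9 libraries, so the signal is apparently scaled to them. The total over 9529 genes in line D was 953211 at 0 h, 390103 at 8 h and 186750 at 12 h. The shNS libraries held 937164 and 826000, then 580217 and 477840, then 193639 and 167376. Line D therefore lay above both shNS libraries at 0 h, below both at 8 h and between them at 12 h. The median gene of line D differed from the shNS mean by 0.30 on the log2(signal + 1) scale at 0 h, by -0.36 at 8 h and by 0.14 at 12 h. At 0 h 6312 genes stood above both shNS libraries and 2018 below both, at 8 h 1722 stood above and 6700 below, and at 12 h 5531 stood above and 3308 below. In these bulk libraries fewer cells of a type and less RNA per cell cannot be told apart. The common shift enters every comparison that rests on 1 time, so each was also run after median-of-ratios scaling, which gives the typical gene the same level in every library.

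**Figure D1:**
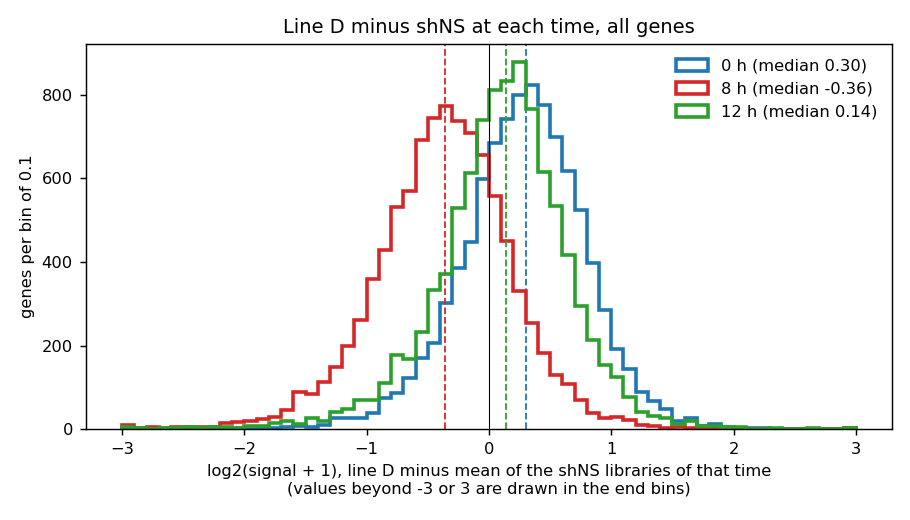
Histograms of log2(signal + 1) in line D minus the mean of the shNS replicates of the same time, over 9529 genes with dashed lines at the medians. The curve of 0 h lies to the right of 0 (median 0.30), that of 8 h to the left (median -0.36) and that of 12 h between them (median 0.14).

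All differences are log2 values of signal + 1, which understates the change of low genes, with standard errors (SE) from limma. The fit on the deposited scale took the spread of genes of like level as known (an infinite prior), so its adjusted p-values became extremely small. For single genes the text therefore prints the differences of the deposited scale beside the adjusted p of the median-of-ratios scale, called the scaled adjusted p. Both come from limma with Benjamini-Hochberg adjustment over all 9529 genes, and a gene is called where the adjusted p of the deposited scale is under 0.05. Line D is 1 line at 3 times, and nothing says that the shNS replicates are separate cultures. The p-values therefore measure only the spread between these libraries. Read depth is unknown, since the table holds no counts and no value of 0.

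ALKBH5 itself was lower in line D at each time, which checks the label. Its signal (chr17:18183078-18209954, plus strand, GRCh38, GENCODE 29, as for the other gene positions) was 84.3, 35.9 and 8.22 at 0, 8 and 12 h in shNS replicate 1, 78.6, 32.1 and 8.30 in replicate 2, and 25.4, 1.52 and 0.636 in line D. The groups did not overlap at any time. Line D held 31.2% of the shNS mean at 0 h, 4.47% at 8 h and 7.70% at 12 h. Across times the difference was -2.65 (SE 0.18), and -2.86 (SE 0.23) on the median-of-ratios scale (scaled adjusted p = 7.95e-06). The remaining transcript also went down further in the drug, to 5.97% of its 0 h signal at 8 h in line D against 42.5% and 40.9% in the shNS replicates. The line D values at 8 and 12 h are close to the added 1, which weighs on their log2 values.

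Of the 23 tested genes of the m6A machinery, 4 were higher and 5 lower in line D across times on the deposited scale, where 18.9% of all genes were called higher and 17.4% lower. Their median was -0.07, beside 0.02 for all genes, and after scaling to ribosomal protein genes it was 0.17 beside 0.27. ALKBH5 had by far the largest difference of the list. METTL5, which methylates ribosomal RNA, followed at -0.91 (SE 0.17), with a signal of 105, 12.6 and 3.59 in line D against 136, 46.8 and 7.44 in shNS replicate 1 and 122, 36.4 and 6.50 in replicate 2. IGF2BP2, an m6A reader that stabilises its targets, stood at -0.86 (SE 0.18), and PCIF1, which methylates the base beside the cap, at -0.85 (SE 0.18). All 3 were below both shNS libraries at each time. METTL3, the catalytic writer, was higher at 0.42 (SE 0.18), but 10 of 24 alternatives did not call it, and without the line D library of 12 h it stood at 0.17 (deposited-scale adjusted p = 0.617). METTL14, its partner, stood at -0.29 (SE 0.18) and YTHDF2, a reader that promotes decay, at 0.20 (SE 0.18), neither called on the deposited scale (adjusted p = 0.189 and 0.416). After median-of-ratios scaling both were called, at -0.35 and 0.19 (adjusted p = 0.00377 and 0.0487). FTO, the other m6A demethylase, had 27.3 and 26.2 in the shNS replicates and 26.7 in line D at 0 h, and its difference across times was -0.17 (SE 0.18, scaled adjusted p = 0.0816). WTAP, an adaptor of the writer complex, was lower at -0.52 (SE 0.18), and 8 of 24 alternatives did not call it, with -0.23 (deposited-scale adjusted p = 0.208) without the line D library of 8 h.

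**Figure D2:**
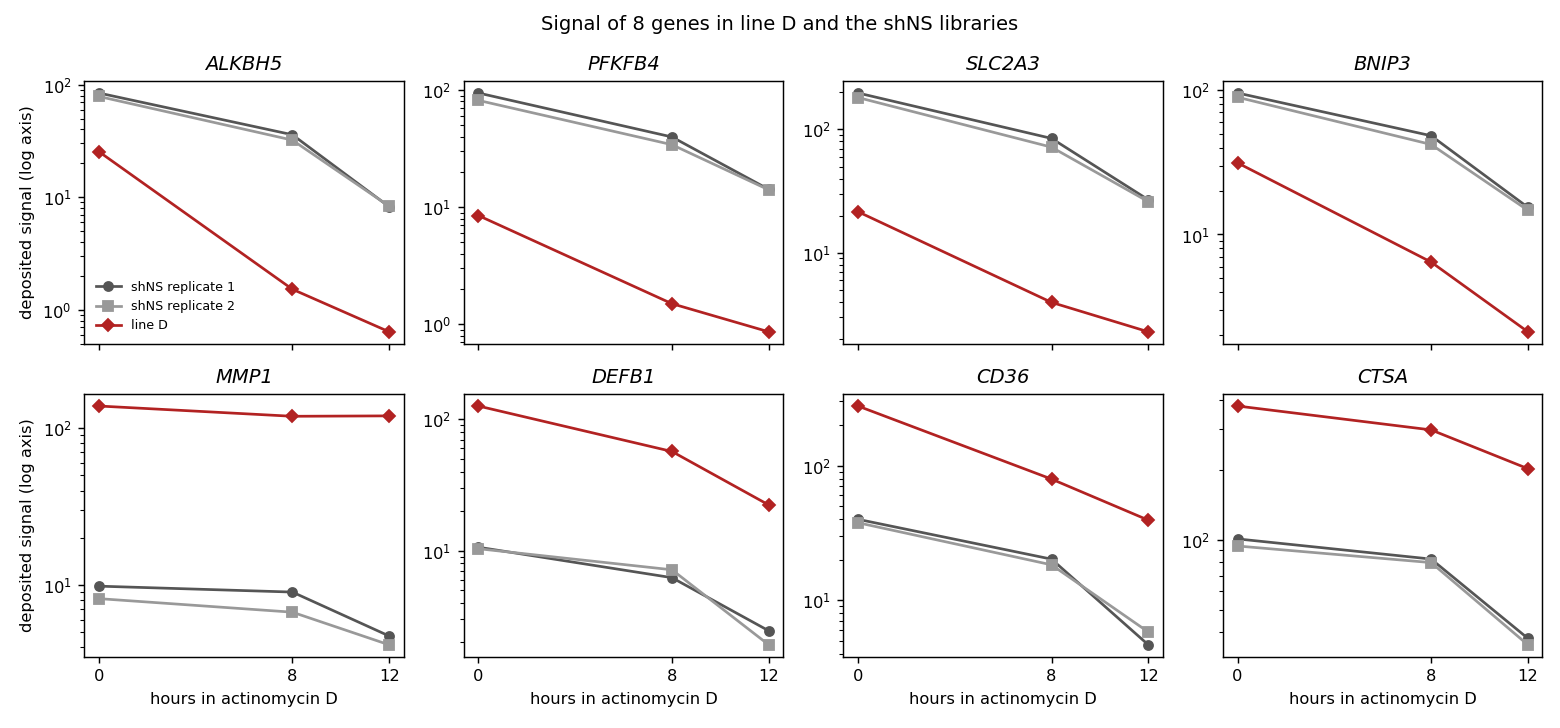
Deposited signal on a log axis against hours in actinomycin D for 8 genes, with line D as red diamonds, shNS replicate 1 as dark circles and shNS replicate 2 as light squares. In the upper row line D lies below both replicates at each time (ALKBH5, PFKFB4, SLC2A3, BNIP3), and in the lower row it is the highest of the libraries (MMP1, DEFB1, CD36, CTSA), where the MMP1 points of line D stay almost level.

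Nearly all tested genes of a hypoxia-responsive list were lower in line D. This list, like the others here, was chosen with earlier results of these data known. In low oxygen the transcription factors HIF-1 and HIF-2 are no longer marked for degradation by prolyl hydroxylases, and they bind a short DNA element in genes for glucose uptake, glycolysis, mitochondrial removal and vessel growth. Of 19 tested hypoxia-responsive genes outside glycolysis, 18 were lower across times and none was higher, where 17.4% of all genes were called lower, and the same 18 stood below both shNS libraries at all 3 times (15.3% of all genes did). The median of the list was -1.36, beside 0.02 for all genes, and it was -1.38 with median-of-ratios scaling and -1.09 with ribosomal protein scaling, where all genes stood at 0.27. The median of the list was -1.01 at 0 h, -1.79 at 8 h and -1.23 at 12 h. Read against the median of all genes at the same time, the list was lower before the drug as well as in it. PLOD1, a collagen lysyl hydroxylase, was the member not called lower, at 0.23 (SE 0.17).

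P4HA1, a subunit of the collagen prolyl hydroxylase, was the lowest of that list. Its signal was 113, 86.9 and 30.0 at 0, 8 and 12 h in shNS replicate 1, 91.1, 71.7 and 28.8 in replicate 2 and 31.9, 10.4 and 4.68 in line D, a difference of -2.29 (SE 0.17, scaled adjusted p = 1.26e-06). BNIP3, a receptor that sends mitochondria to autophagy, had 31.3, 6.44 and 2.12 in line D against 95.6, 48.3 and 15.4 in shNS replicate 1 and 89.3, 42.0 and 14.7 in replicate 2, a difference of -2.17 (SE 0.17, scaled adjusted p = 2.53e-06). Its paralog BNIP3L stood at -1.24 (SE 0.17). NDRG1, a stress-response gene, had 169, 67.1 and 30.1 in line D against 597, 377 and 139 in shNS replicate 1 and 579.6, 347 and 128 in replicate 2, a difference of -2.11 (SE 0.16). VEGFA, the growth factor of blood vessels, had 143, 25.1 and 14.7 against 306, 95.6 and 47.0 in shNS replicate 1 and 294, 86.8 and 46.0 in replicate 2, a difference of -1.49 (SE 0.17). For each of these genes line D lay below both shNS libraries at each time. EGLN1, the prolyl hydroxylase that marks HIF in normal oxygen, stood at -0.75 (SE 0.17). MIF, a cytokine, was the smallest called difference at -0.43 (SE 0.16), and 8 of 24 alternatives did not call it.

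Genes for glucose uptake and its HIF control were lower in 11 of 15 cases and higher in none, with a median of -0.71 across times. Of all genes 17.4% were called lower and 18.9% higher, with a median of 0.02. PFKFB4 (chr3:48517684-48562015, minus strand) makes the allosteric activator of phosphofructokinase and had the largest negative difference of the whole comparison among genes with a mean signal of at least 5 and line D below both replicates at each time. Its signal was 94.6, 39.8 and 14.2 in shNS replicate 1, 81.8, 34.2 and 14.1 in replicate 2 and 8.49, 1.50 and 0.863 in line D, which is 9.63%, 4.05% and 6.10% of the shNS mean, a difference of -3.39 (SE 0.18, scaled adjusted p = 1.24e-08). SLC2A3 (chr12:7919230-7936275, minus strand), the high-affinity glucose transporter GLUT3, had 21.5, 3.96 and 2.28 in line D against 198, 84.6 and 26.9 in shNS replicate 1 and 182, 71.8 and 25.9 in replicate 2, a difference of -3.38 (SE 0.17). SLC2A1, the transporter GLUT1, stood at -1.52 (SE 0.18), and held 55.4% of the shNS mean at 0 h but 17.9% at 8 h. PDK1, a kinase that inhibits pyruvate dehydrogenase, had 248, 63.7 and 24.1 against 737, 415 and 136 in shNS replicate 1 and 676, 335 and 126 in replicate 2, a difference of -2.15 (SE 0.16). HK2, an inducible hexokinase, stood at -1.96 (SE 0.17) and GBE1, the glycogen branching enzyme, at -1.92 (SE 0.17).

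Within core glycolysis 10 of 16 genes were lower across times and none was higher, with a median of -0.49, beside 0.02 for all genes. Of all genes 17.4% were called lower and 18.9% higher. The list shares ENO2, HK2, PGK1, LDHA and HK1 with the glucose list. ENO2, the enolase form best known from neurons, had 8.01, 4.61 and 2.73 in line D against 56.1, 51.5 and 26.0 in shNS replicate 1 and 53.2, 49.0 and 25.4 in replicate 2, a difference of -2.88 (SE 0.18, scaled adjusted p = 1.67e-07). ALDOC, an aldolase form, stood at -2.20 (SE 0.17), TPI1 at -1.85 (SE 0.16) and ENO1 at -1.49 (SE 0.16). The members did not move as a block. LDHA, which makes lactate, had 612 in line D and 619.7 and 586 in the shNS replicates at 0 h and stood at 0.14 (SE 0.16) across times. PGAM1, PFKP and HK1 stood at 0.09, 0.24 and 0.27, none called. Pairs of related enzymes were picked after their values were seen. HK2 and HK1 stood at -1.96 and 0.27, ENO2 and ENO1 at -2.88 and -1.49, and ALDOC and ALDOA at -2.20 and -0.29.

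**Figure D3:**
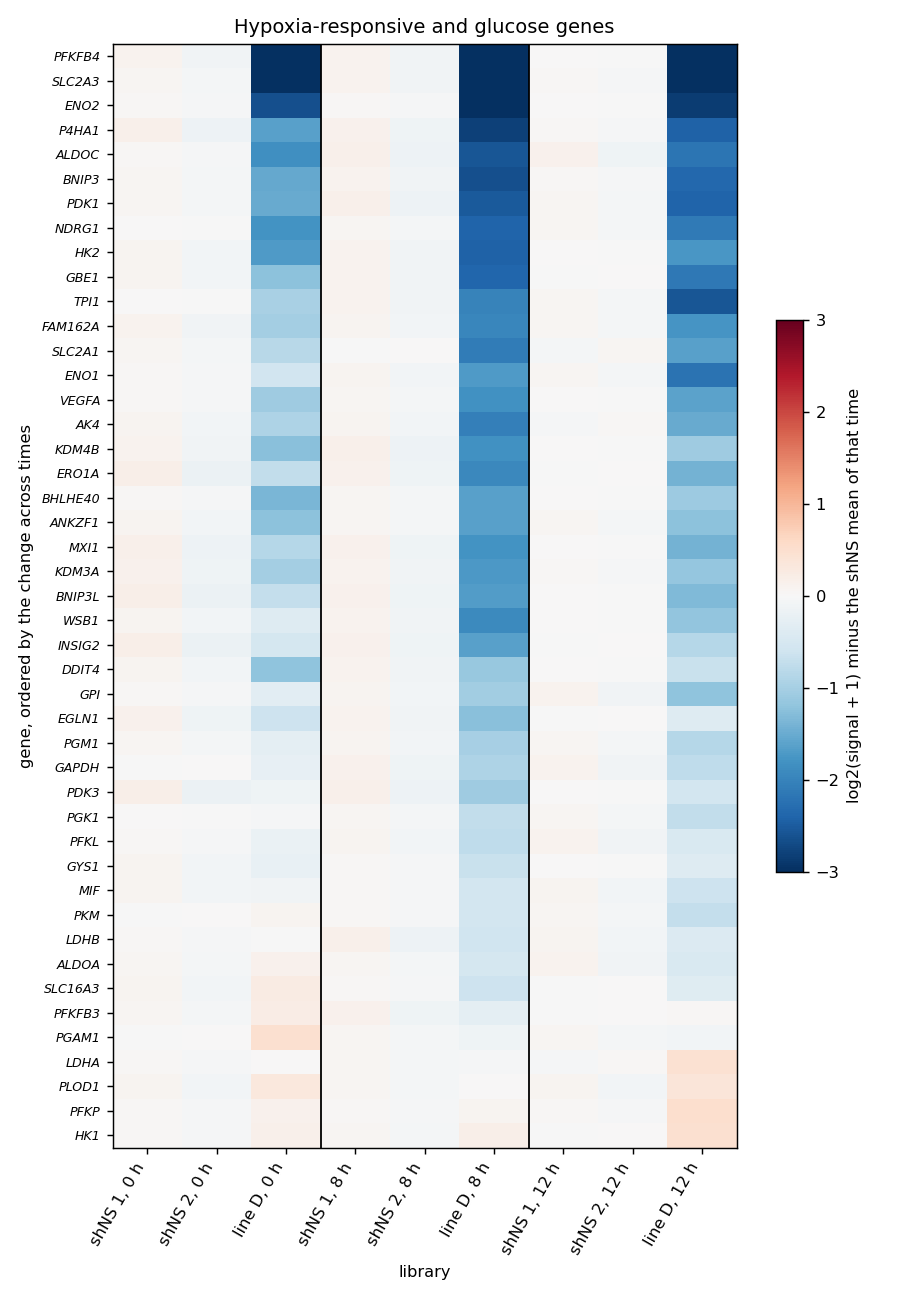
Heat map of the 45 genes of the hypoxia, glucose and core glycolysis lists (rows, ordered by the change across times) in 9 libraries (columns, grouped by time), coloured by log2(signal + 1) minus the mean of the shNS replicates of that time. The line D columns are blue for most rows at each time, and for most of these deepest at 8 h, while the rows of PLOD1, PFKFB3, PGAM1, LDHA, PFKP and HK1 are near white or pale red at 0 or 12 h.

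The promoters of these genes often hold ACGTG, the core of the element that HIF binds. In RefSeq windows of GRCh38.p14 from 250 bases before to 50 bases after a gene's start, 29 of the 40 genes of these 3 lists with a window (72.5%) held ACGTG on either strand (read as CACGT where it is on the other strand), against 2475 of 7277 tested genes (34.0%) and 7518 of 35116 windows of all genes (21.4%). The palindrome CACGTG contains ACGTG on both strands and was found in 11 of the 40 (27.5%) and in 13.8% of the tested genes with a window. The share was 13 of 15 for the hypoxia list, 10 of 14 for the glucose list and 10 of 16 for core glycolysis. LDHA, PFKP and ALDOA, which were not called lower in line D on the deposited scale, held such letters as well. A match describes these letters only, and binding was not measured. The shares describe the lists and not line D, and the 21.4% counts single windows rather than genes. The stretches of 6 genes show the letters and their neighbours. They were taken as those with the lowest differences across times among the stretches written out that overlap no exon of GENCODE 29. No stretch was written out for NDRG1 (-2.11 across times), so that gene was not part of this ranking. The stretches are read 5′ to 3′ on the strand of the gene, with the matched letters in capitals. Their positions are chr10:131982032-131982077 on the minus strand for BNIP3, chr2:74834956-74835046 on the plus strand for HK2, chr3:122384078-122384122 on the plus strand for FAM162A, chr1:65147439-65147484 on the plus strand for AK4, chr19:4968863-4968897 on the plus strand for KDM4B and chr10:110210098-110210142 on the plus strand for MXI1, all before the RefSeq start that set the window.
BNIP3: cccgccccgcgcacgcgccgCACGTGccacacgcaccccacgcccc
HK2: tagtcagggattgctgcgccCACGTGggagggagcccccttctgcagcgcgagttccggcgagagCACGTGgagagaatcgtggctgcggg
FAM162A: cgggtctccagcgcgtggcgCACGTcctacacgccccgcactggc
AK4: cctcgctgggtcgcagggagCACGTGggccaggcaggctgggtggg
KDM4B: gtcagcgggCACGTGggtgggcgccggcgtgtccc
MXI1: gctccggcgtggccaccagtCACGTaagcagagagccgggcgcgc

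BNIP3, AK4, KDM4B and HK2 hold the palindrome, HK2 at 2 places, and in FAM162A and MXI1 the match is in the other strand. Across times BNIP3 and HK2 stood at -2.17 and -1.96, and FAM162A and AK4 at -1.58 and -1.49. KDM4B, a histone demethylase, stood at -1.37 (SE 0.18) and MXI1, a repressor that competes with MYC for its partner MAX, at -1.35 (SE 0.17).

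The genes higher in line D included the secreted and surface proteins of monocytes and granulocytes. Of 8 tested antimicrobial and calcium-binding defence genes 7 were higher across times and none was lower, where 18.9% of all genes were called higher, and the same 7 stood above both shNS libraries at all 3 times (17.5% of all genes did). The median of the list was 1.26 across times, and 1.51 at 0 h. DEFB1, an epithelial defensin, had 126, 56.9 and 22.3 at 0, 8 and 12 h in line D against 10.6, 6.22 and 2.45 in shNS replicate 1 and 10.3, 7.15 and 1.92 in replicate 2, a difference of 3.09 (SE 0.18, scaled adjusted p = 1.32e-07). S100A9, a subunit of calprotectin, had 64.6, 42.2 and 24.5 against 10.6, 11.6 and 4.13 in shNS replicate 1 and 15.4, 12.5 and 4.85 in replicate 2, a difference of 2.07 (SE 0.18). CAMP, the cathelicidin gene, stood at 1.66 (SE 0.17), LYZ, lysozyme, at 1.29 (SE 0.17), and SLPI, an inhibitor of neutrophil proteases, at 1.23 (SE 0.18). BPI, a granule protein that binds endotoxin, was the member not called, at 0.08 (SE 0.18). Of 10 primary granule genes 5 were higher, among them ELANE at 0.93 (SE 0.16) and CTSG at 0.76 (SE 0.16), and SERPINB1 was lower at -0.87 (SE 0.17). SERPINB1 inhibits the proteases that ELANE and CTSG encode.

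Of 13 monocyte and macrophage receptors 7 were higher and 1 lower, with a median of 0.58, beside 0.02 for all genes. Of all genes 18.9% were called higher and 17.4% lower. CD36 (chr7:80369575-80679277, plus strand), the scavenger receptor for oxidised lipid, had 277, 79.3 and 39.2 in line D against 39.8, 20.1 and 4.65 in shNS replicate 1 and 37.6, 18.3 and 5.79 in replicate 2, a difference of 2.50 (SE 0.17, scaled adjusted p = 1.7e-07). ITGAM, the integrin CD11b, had 25.6, 17.8 and 13.9 against 4.50, 3.62 and 1.28 in shNS replicate 1 and 5.68, 4.00 and 1.50 in replicate 2, a difference of 2.25 (SE 0.18). TYROBP, an adaptor of activating receptors, stood at 1.22 (SE 0.17) and CD68, a lysosomal macrophage marker, at 1.15 (SE 0.16). FCGR2B, the inhibitory Fc receptor, went the other way, with 45.1, 16.9 and 9.45 in line D against 87.4, 75.6 and 36.7 in shNS replicate 1 and 85.2, 71.6 and 36.2 in replicate 2, a difference of -1.61 (SE 0.17). FCGR2A, an activating Fc receptor, stood at -0.18 (SE 0.17) and was not called. Genes of antigen presentation were lower in 4 of 10 cases and higher in 1, and their median of 0.07 was near that of all genes. CD74, the invariant chain, stood at -1.15 (SE 0.16), CIITA, the regulator of class II transcription, at -1.05 (SE 0.18), and HLA-E at -1.05 (SE 0.16), while CTSS, the protease that cuts the invariant chain, was higher at 1.40 (SE 0.17).

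MMP1 (chr11:102789920-102798160, minus strand), the interstitial collagenase, had the largest positive difference of the comparison. Its signal was 9.81, 9.0 and 4.72 in shNS replicate 1, 8.17, 6.70 and 4.14 in replicate 2 and 138, 119 and 119.8 in line D, a difference of 4.02 (SE 0.18, scaled adjusted p = 4.78e-07). In line D the signal at 12 h was 86.5% of that at 0 h, against 48.1% and 50.7% in the shNS replicates. Of the 8 metalloproteinase and inhibitor genes tested, MMP2, TIMP1 and ADAM9 were higher as well, at 0.97, 0.66 and 0.63, where 18.9% of all genes were called higher. ADAM9 was not called without the line D library of 12 h (0.44, deposited-scale adjusted p = 0.132). TIMP1 was not called with 0 and 8 h only (0.61). Few markers of other cell types had a row in the table. None of the 10 erythroid, 10 epithelial and kidney or 9 fibroblast markers was among the tested genes, 1 of 8 megakaryocyte markers was (GP1BA), and 2 of 13 lymphoid ones were, among them NKG7. The signal of GP1BA was between 0.834 and 3.14 in line D, while NKG7 was not low in any arm (392 and 371 in the shNS replicates and 269 in line D at 0 h). Of 11 markers of the NOMO-1 lineage 7 were tested, and their summed signal at 0 h was 747.3 and 708.2 in the shNS replicates and 965.4 in line D.

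**Figure D4:**
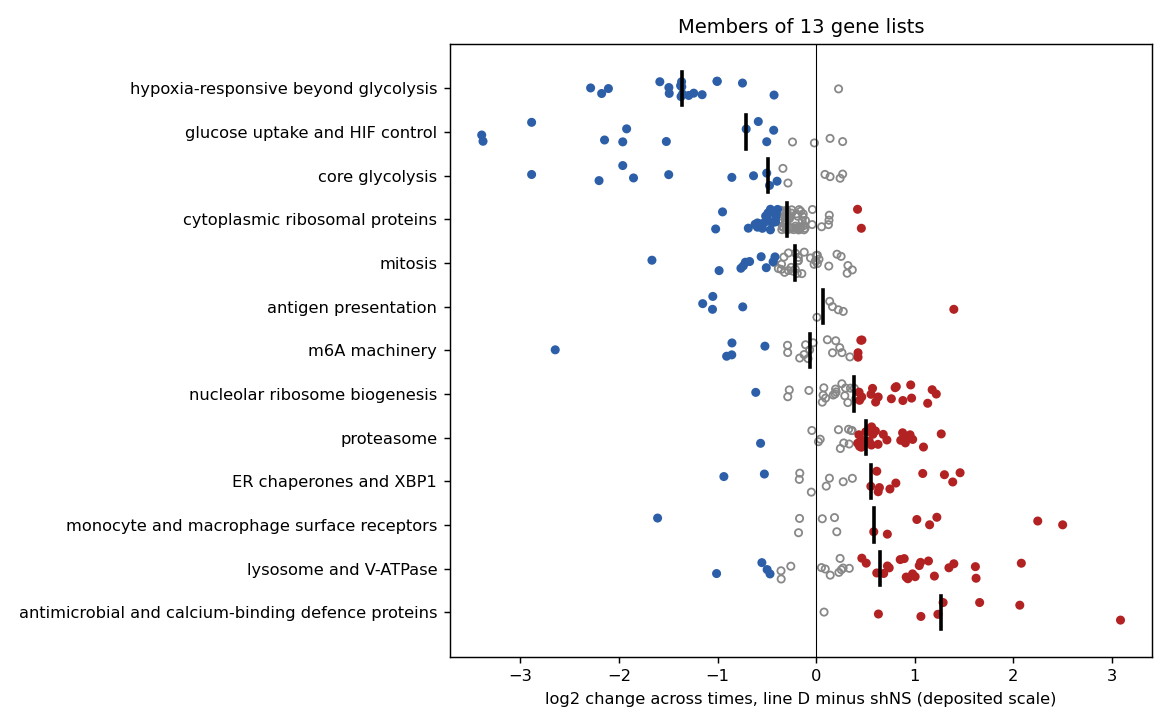
Log2 change across times (line D minus shNS, deposited scale) of the members of 13 gene lists, with filled red points called higher, filled blue points called lower, open grey points not called, and a black bar at each median. The hypoxia list lies left of 0 in 18 of 19 cases and the defence list right of 0, while the m6A machinery, mitosis and antigen presentation lists straddle 0.

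Of 36 lysosomal and V-ATPase genes 21 were higher and 4 lower across times, where 18.9% of all genes were called higher and 17.4% lower. Their median was 0.65, beside 0.02 for all genes, and 20 of them stood above both shNS libraries at all 3 times (17.5% of all genes did). The list median was 0.72 at 0 h, 0.26 at 8 h and 0.82 at 12 h, above that of all genes each time. CTSA (chr20:45890144-45898820, plus strand), the protective cathepsin that holds other lysosomal enzymes together, had 377, 297 and 202 in line D against 101, 82.6 and 37.6 in shNS replicate 1 and 94.0, 79.8 and 35.3 in replicate 2, a difference of 2.08 (SE 0.16, scaled adjusted p = 1.86e-06). MCOLN1, the calcium channel of the lysosome, had 18.9, 7.55 and 5.78 against 4.24, 2.63 and 0.967 in shNS replicate 1 and 4.85, 2.44 and 1.08 in replicate 2, a difference of 1.62 (SE 0.17). SMPD1, acid sphingomyelinase, stood at 1.61 (SE 0.18), and LAMP1, a membrane glycoprotein, at 0.93 (SE 0.16). GAA, acid alpha-glucosidase, which breaks down glycogen, was lower, at -1.01 (SE 0.17). TFEB, the transcription factor of lysosomal genes, was lower at -0.47 (SE 0.16), and 6 of 24 alternatives did not call it, among them the fit without the line D library of 8 h (-0.30, deposited-scale adjusted p = 0.0805).

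TFEB and its relatives bind an element with TCACGTGA at its centre. Of the 23 lysosomal genes with a promoter window, 5 (21.7%) held these letters, which read the same on both strands and contain CACGTG and ACGTG, against 2.58% of tested genes with a window. They were ATP6V0D1, CTSA, GAA, LAMP1 and MCOLN1. The stretches of LAMP1 and MCOLN1, which overlap no exon of GENCODE 29, are given with the matched letters in capitals, read as above on the strand of the gene. They lie at chr13:113297190-113297237 on the plus strand for LAMP1 and chr19:7522562-7522623 on the plus strand for MCOLN1.
LAMP1: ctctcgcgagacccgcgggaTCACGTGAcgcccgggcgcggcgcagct
MCOLN1: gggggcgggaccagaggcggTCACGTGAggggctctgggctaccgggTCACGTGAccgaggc

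GAA and MCOLN1 each hold the letters at 2 places, and they differed in direction. GAA stood at -1.01 across times and MCOLN1 at 1.62. With 1 copy each, CTSA stood at 2.08, ATP6V0D1 at 1.06 and LAMP1 at 0.93.

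Of 37 proteasome genes 26 were higher and 1 was lower across times, with a median of 0.50, where 18.9% of all genes were called higher. ADRM1, a ubiquitin receptor of the proteasome, stood at 1.27 (SE 0.18) and PSMD2, a base subunit, at 0.95 (SE 0.17), with 260, 122 and 51.5 in line D against 133, 80.7 and 22.9 in shNS replicate 1 and 124, 71.9 and 21.5 in replicate 2. PSME1, a subunit of the interferon-inducible activator, was the lower one at -0.56 (SE 0.17), while PSME3, the nuclear activator, was higher at 1.09 (SE 0.18). The proteasome count moved with the libraries used, and so did that of all genes. With 0 and 8 h only, 10 proteasome genes and 672 genes in all were higher, against 26 and 1804 with every library, and without the line D library of 12 h 13 and 1022 were. Of 19 endoplasmic reticulum chaperone genes 10 were higher and 2 lower, with a median of 0.55. CALR, calreticulin, had 3659, 1414 and 626 in line D against 1417, 899.9 and 302 in shNS replicate 1 and 1404, 808 and 267 in replicate 2, a difference of 1.08 (SE 0.16), and SDF2L1 and CRELD2 stood at 1.46 (SE 0.18) and 1.39 (SE 0.18). EDEM1, which takes misfolded proteins out for degradation, was lower at -0.94 (SE 0.18). Of 35 nucleolar ribosome biogenesis genes 16 were higher, 26 without the line D library of 8 h, when 3706 genes in all were higher rather than 1804, and 1, NPM1, was lower at -0.61 (SE 0.16).

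The medians of ribosomal protein and mitotic genes lay below that of all genes. Across times 18.9% of all genes were called higher and 17.4% lower. Of 76 cytoplasmic ribosomal protein genes 2 were higher and 23 lower, with a median of -0.29 beside 0.02 for all genes. When these genes set the scale, their median was near 0 by construction (-0.01), beside 0.27 for all genes. RPL7 was the lowest at -1.02 (SE 0.16). Of 42 mitotic genes none was higher and 10 were lower, with a median of -0.21, and of 0.05 after scaling to ribosomal protein genes, again beside 0.02 and 0.27 for all genes. The counts also turned on single libraries of line D. Without that of 0 h 25 mitotic and 37 ribosomal protein genes were lower, when 2576 genes in all were rather than 1661. Without that of 8 h 6 and 10 were, of 1132 in all, and without that of 12 h 4 mitotic genes, of 1361 in all. CCNB2, a mitotic cyclin, was the lowest of them at -1.66 (SE 0.17), and CCNB1, its paralog, stood at 0.25 (SE 0.17). CCND3, a cyclin of the G1 phase, was higher at 1.68 (SE 0.16), with 1114, 476 and 218 in line D against 349, 187 and 52.2 in shNS replicate 1 and 357, 187 and 51.1 in replicate 2. MYC had 275 in line D against 183 and 184 at 0 h and stood at 0.62 (SE 0.18) across times, a call that was lost without the line D library of 12 h (0.49, deposited-scale adjusted p = 0.0847). TACC3, a spindle gene reported as a target of ALKBH5 in leukaemia, stood at 0.03 (SE 0.17) across times.

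Several genes stood far from the other members of their complexes. ATP5B, the catalytic beta subunit of ATP synthase, had 192, 32.5 and 10.6 in line D against 718, 523 and 166 in shNS replicate 1 and 688, 453 and 140.4 in replicate 2, a difference of -3.15 (SE 0.16, scaled adjusted p = 6.36e-06). The other 15 tested ATP synthase genes lay between -0.76 (ATP5O) and 0.80 (ATP5E). SNRPC (chr6:34757406-34773794, plus strand), a protein of the U1 splicing particle, had 63.3, 6.59 and 1.90 against 140.3, 94.6 and 25.9 in shNS replicate 1 and 134, 84.9 and 24.1 in replicate 2, a difference of -2.61 (SE 0.17, scaled adjusted p = 5.42e-05). The other 25 tested genes of that list lay between -0.45 (SNRPA1) and 0.80 (SNRPG). HSD17B4, a peroxisomal enzyme of fatty acid oxidation, had 51.5, 9.35 and 3.61 in line D against 144, 107 and 36.6 in shNS replicate 1 and 139, 95.4 and 34.3 in replicate 2, a difference of -2.57 (SE 0.17). It was below both shNS libraries at each time. COLQ, GNPDA1, MFAP4 and ANKRD27 were among the lowest as well, at -2.33, -2.29, -2.27 and -2.25. HSPA1A, an inducible chaperone with a near-identical copy, stood at -2.36 (SE 0.17), and reads of the copies may not be told apart.

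Among the other genes higher at each time, NQO1, a quinone reductase, had 44.1, 19.9 and 11.5 in line D against 9.89, 6.72 and 2.01 in shNS replicate 1 and 8.17, 5.64 and 1.72 in replicate 2, a difference of 1.95 (SE 0.18). PRCP, a lysosomal carboxypeptidase, stood at 2.02 (SE 0.17), PLXNC1, a semaphorin receptor, at 1.80 (SE 0.18), and HIST1H2BK, a histone H2B gene, at 2.14 (SE 0.18). ANXA2, a membrane-binding annexin, stood at 1.86 (SE 0.16), and its processed pseudogene ANXA2P2, whose reads may be those of ANXA2, at 1.89 (SE 0.18). DCT, which pigment cells use to make melanin, stood at 1.70 (SE 0.17). In all, the comparison across times called 1804 genes higher and 1661 lower on the deposited scale. Without the line D library of 8 h 3706 were higher, without that of 12 h 1022 were, and without that of 0 h 2576 were lower. Of the 1804 and 1661 genes, 1792 and 1652 were called in the same direction after median-of-ratios scaling.

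The hypoxia and defence lists differed in line D before the drug. At 0 h 4132 genes (43.4%) were called higher and 874 (9.17%) lower on the deposited scale, and 2779 (29.2%) higher and 2899 (30.4%) lower after median-of-ratios scaling, which removes the common shift of 0.30. The single line D library of a time is assumed to vary like the shNS pairs. Of the hypoxia list 17 of 19 genes were lower at 0 h on the deposited scale and 18 after scaling, and of the defence list 7 of 8 were higher on both. HMOX1, haem oxygenase, had 2.71 and 3.75 in the shNS replicates and 34.8 in line D, a difference of 3.09 (SE 0.16, scaled adjusted p = 1.18e-06), and by 8 h line D had come down to 4.56. STC1, a glycoprotein hormone, had 23.7 and 23.4 in shNS and 4.41 in line D, a difference of -2.18 (SE 0.18). GPR146, an orphan receptor, had 39.4 and 35.9 in shNS and 5.89 in line D, a difference of -2.48 (SE 0.17, scaled adjusted p = 3.46e-07). HSPA8, the constitutive chaperone, had 505 and 483 in shNS and 1753 in line D, a difference of 1.82 (SE 0.17). The ribosomal protein genes were called lower in 3 of 76 cases at 0 h on the deposited scale and in 59 after median-of-ratios scaling. RN7SL1 and RN7SL2, copies of the signal recognition particle RNA, were called lower at 0 h on the deposited scale, where shNS replicate 1 held 3410 for RN7SL2 and replicate 2 133, beside 109 in line D. The shNS replicates thus differed from each other more than line D differed from replicate 2, and neither gene was called after median-of-ratios scaling.

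In actinomycin D the genes of line D kept less of their signal at 8 h than those of the shNS libraries. The median gene kept 23.9% of its 0 h signal in line D and 42.2% and 41.1% in the shNS replicates. By 12 h the values were 10.9% in line D and 11.9% and 12.9% in shNS. On the deposited scale the change by 8 h was lower in line D for 6255 genes (65.6%) and higher for 30 (0.315%), and the median difference of all genes was -0.65. After median-of-ratios scaling 1050 (11.0%) were lower and 1555 (16.3%) higher, and the 1050 were among those called lower on the deposited scale. For the change by 12 h 1052 genes (11.0%) were lower and 241 (2.53%) higher, around a median of -0.18, and after median-of-ratios scaling 1940 (20.4%) were lower and 2043 (21.4%) higher. The shift at 8 h rests on a single line D library, and a difference in decay and a difference in the amount of RNA recovered at that time cannot be told apart.

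The smaller share left at 8 h in line D was found in each of 4 equal groups of genes ranked by what the shNS replicates kept. In the group they kept least (under 27.4% at 8 h), line D kept a median of 12.1% against 20.1% and 19.5%. In the group they kept most (above 58.4%), it kept 45.3% against 72.6% and 69.2%. The median difference of the change by 8 h was -0.57 in the lowest group, -0.71 and -0.72 in the middle groups and -0.62 in the highest, and 0.11, 0.00, 0.00 and 0.11 after median-of-ratios scaling. The groups were formed from shNS values that also enter the difference, so they are given as a description.

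**Figure D5:**
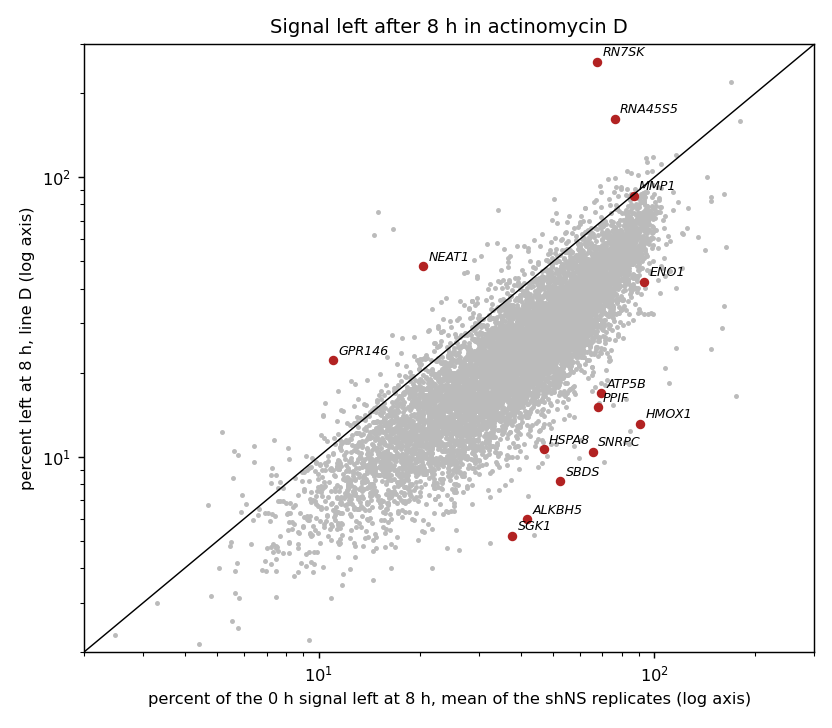
Percent of the 0 h signal left at 8 h in line D against the mean of the shNS replicates for 9529 genes on log axes, with named genes in red and the line of equality in black. Most points lie below the line, with SNRPC, SBDS, SGK1, HMOX1 and ALKBH5 far below it and RN7SK, RNA45S5, NEAT1 and GPR146 above it.

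Beyond the common shift, line D kept much less of some transcripts at 8 h. SNRPC kept 10.4% in line D and 67.5% and 63.5% in the shNS replicates, a difference of change of -2.48 (SE 0.24) on the deposited scale and -1.77 (SE 0.10) after median-of-ratios scaling (scaled adjusted p = 5.32e-05). SBDS, a ribosome maturation factor, kept 8.17% against 52.2% and 52.5%, a difference of -2.32 (SE 0.25) and -1.66 (SE 0.13), and its pseudogene SBDSP1, which may share its reads, kept 9.60% against 73.4% and 67.8%. ATP5B kept 16.9% against 72.8% and 65.8%, a difference of -2.00 (SE 0.24) and -1.24 (SE 0.12). These genes were already lower at 0 h. In all, 112 genes (1.18%) were lower at 0 h and had a lower change by 8 h on both scales. Another 328 (3.44%) were higher at 0 h and had a lower change by 8 h on both scales. A 0 h value enters both measures with opposite signs, and error in it raises the second count and lowers the first.

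HSPA8 belongs to the second kind, with 1753, 186 and 67.4 in line D against 505, 245 and 61.9 in shNS replicate 1 and 483, 219 and 59.7 in replicate 2. It kept 10.6% against 48.4% and 45.3% at 8 h, a difference of -2.14 (SE 0.24) and -1.35 (SE 0.11). SGK1, a kinase gene, kept 5.22% against 39.6% and 36.0%, a difference of -2.52 (SE 0.26) and -1.81 (SE 0.13). HMOX1 kept 13.1% against 114% and 67.2%, a difference of -2.54 (SE 0.22) and -1.44 (SE 0.18). At 0 h line D was above both shNS libraries for HSPA8, SGK1 and HMOX1. At 8 h it was below both for HSPA8 and SGK1 and still above both for HMOX1.

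By 12 h the transcripts that line D kept less of included some enzymes of glycolysis. Of 16 core glycolysis genes 5 had a lower change and none a higher one, where 11.0% and 2.53% of all genes did. After median-of-ratios scaling 9 were lower and 3 higher, where 20.4% and 21.4% of all genes were. PPIF, cyclophilin D of mitochondria, kept 4.40% in line D against 22.5% and 20.6% in the shNS replicates, a difference of change of -2.13 (SE 0.24, scaled adjusted p = 1.71e-05). ENO1 kept 12.2% against 39.1% and 38.3%, a difference of -1.66 (SE 0.27), and TPI1 13.3% against 41.4% and 39.2%, a difference of -1.58 (SE 0.25). ODC1, the key enzyme of polyamine synthesis, kept 6.67% against 26.4% and 26.1%, a difference of -1.93 (SE 0.24), and ATP5B stood at -1.86 (SE 0.24). ALKBH5 stood at -0.86 (SE 0.25) for the change by 12 h and -1.40 (SE 0.10) after median-of-ratios scaling. On the deposited scale that call was lost without either shNS library of 12 h (adjusted p = 0.152 and 0.149).

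On the deposited scale the change was higher in line D for few genes, 30 (0.315%) by 8 h and 241 (2.53%) by 12 h. After median-of-ratios scaling it was higher for 1555 (16.3%) and 2043 (21.4%). The genes with the largest such differences included nuclear and structural RNAs and the protein-coding GPR146. RN7SK, the RNA that holds the elongation kinase P-TEFb inactive, had 61.9, 160.4 and 263 in line D against 93.2, 75.3 and 79.5 in shNS replicate 1 and 72.4, 39.5 and 53.2 in replicate 2. It was below both replicates at 0 h and above both at 8 and 12 h, a difference of change of 1.94 (SE 0.24) by 8 h and 2.40 (SE 0.24) by 12 h. RNA45S5, the ribosomal RNA precursor, had 379.6, 616 and 459 against 979.8, 745 and 307 in shNS replicate 1 and 622, 474 and 207 in replicate 2, a difference by 12 h of 1.90 (SE 0.25). NEAT1, the scaffold RNA of paraspeckles, had 45.6, 21.9 and 10.6 against 103, 21.2 and 5.97 in shNS replicate 1 and 83.9, 17.2 and 5.59 in replicate 2, a difference of 1.20 (SE 0.25) by 8 h and 1.79 (SE 0.25) by 12 h. GPR146 kept 22.2% at 8 h in line D against 12.2% and 9.92%, a difference of 1.33 (SE 0.25) and 2.10 (SE 0.25) by 12 h, from a low start of 5.89. All these differences of change were also called after median-of-ratios scaling. The labels' protocols name an mRNA isolation kit, and RN7SK and RNA45S5 are not polyadenylated mRNAs. How the carry-over of such RNA varied between libraries was not tested. The 18S and 28S signal was between 4.60% and 5.89% of the gene total in line D and between 2.85% and 11.7% in the shNS libraries.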

How the data were processed

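mRNA libraries of NOMO-1 cells were sequenced by the authors. Per the submitters' processing notes, STAR, RSEM and GRCh38 were used, and no version is stated. The authors deposited 1 table of normalised signal per gene, whose scaling no label describes. It holds no counts, so no count model was run and the precision from depth is unknown. Columns were mapped by name, and 3 columns of another line were not used. The filter (mean of at least 1) removed no gene.

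The signal was taken as log2(signal + 1) and tested with limma 3.58.1 (R 4.3.3, empirical Bayes with trend) over 9529 genes in 9 libraries. Across times the model held time and line. For 0 h and for the changes by 8 and 12 h, 6 group means were fitted. A gene was called at an adjusted p under 0.05. The scripts were tested on simulated data. Alternatives were other filters, scalings and pseudocounts, a fit without trend, a replicate block, fewer times and leaving out each library.

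Named genes are the targeted gene and 7 genes of m6A and leukaemia, the 14 largest differences each way with line D outside both shNS libraries at each time and a mean of at least 5, up to 5 members per list, and the largest differences at 0 h (8 each way) and of change (6 each way). Other genes, such as LDHA, PLOD1, BPI, FCGR2A and CCNB1, were chosen after their values were seen. The members and the 44 lists were chosen with earlier results of these data known. Of 9529 symbols 9144 matched GENCODE 29, and 7277 had a RefSeq promoter window (GRCh38.p14). Values of some single genes are not reported here.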

Additional observations from a re-analysis of the deposited data

Results flagged for a closer look

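The change in actinomycin D differed between line D and shNS. Each difference of change named here was itself tested with limma on the deposited scale and was called on both scales. By 8 h 6255 genes were lower in line D on the deposited scale, and by 12 h 1052 were.

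By 8 h the differences of change were -2.54 for HMOX1, -2.52 for SGK1, -2.48 for SNRPC, -2.32 for SBDS, -2.15 for ALKBH5, -2.14 for HSPA8 and -2.00 for ATP5B. They were positive for RN7SK (1.94), GPR146 (1.33) and NEAT1 (1.20). The median of all genes was -0.65.

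By 12 h the differences of change were -2.13 for PPIF, -1.93 for ODC1, -1.86 for ATP5B, -1.66 for ENO1, -1.58 for TPI1 and -0.86 for ALKBH5. They were positive for RN7SK (2.40), GPR146 (2.10), RNA45S5 (1.90) and NEAT1 (1.79). The median of all genes was -0.18.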

How the results depend on the processing

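Of 162 gene results, 126 kept their direction and their side of the threshold under every alternative run and 36 crossed the threshold in at least 1. No called difference was called in the other direction, but 9 differences that were not called took both signs, those of FTO (-0.31 to 0.08), TACC3 (-0.24 to 0.30), YTHDF2, LDHA, ALDOA, BPI, FCGR2A, PGAM1 and MEIS1. Counts of calls moved more. After median-of-ratios scaling 3130 were higher and 2907 lower across times, with 2899 lower at 0 h, 1555 higher and 1050 lower for the change by 8 h, and 2043 and 1940 by 12 h. Scaling to ribosomal protein genes gave 5037 higher across times, 267 higher and 1546 lower by 8 h, and 795 and 2023 by 12 h. Scaling to the mean of the spike-ins gave 54 higher by 8 h and 387 by 12 h. With 0 and 8 h only 672 were higher and 976 lower across times, with 0 and 12 h only 3574 and 1066, and with 8 and 12 h only 1101 were higher. A fixed replicate block gave 56 higher by 8 h, and 818 higher and 2938 lower by 12 h. The block with median-of-ratios scaling, chosen after seeing the data, gave 1620 and 1101 by 8 h and 2134 and 1975 by 12 h. The shNS replicates were treated as sharing only a number, since 1 of the 3 correlations of their deviations between times was not over 0.1 (0.271, 0.065 and 0.138), although replicate 1 had the higher gene total at each time, and the estimated block correlation was -0.168 across times and 0.585 at 0 h.

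With each library left out in turn, counts across times ran from 1022 (without line D, 12 h) to 3706 higher (without line D, 8 h) and from 1132 to 2576 lower (without line D, 0 h). With median-of-ratios scaling as well, chosen after seeing the data, they ran from 2603 to 3594 and from 2546 to 3138, with 2887 and 2624 without the line D library of 12 h. At 0 h the lower count ran from 572 (without shNS replicate 1) to 988. The change by 8 h ran from 18 (without either shNS library of 12 h) to 55 higher, and that by 12 h from 41 to 356 higher and from 207 to 1456 lower. For the change by 12 h 59 were higher and 207 lower without shNS replicate 1 of 12 h, and 41 and 235 without replicate 2 of 12 h. Without replicate 1 of 0 h 152 were higher, and without replicate 2 of 0 h 487 were lower. The filter on low values removed no gene, since the lowest mean was 1.35. The causes of these shifts were not tested.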

Other observations

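The BCL2 family, which sets the threshold for cell death at the mitochondrion, moved in both directions in line D. Of 12 tested genes 6 were higher across times and 3 lower, where 18.9% of all genes were called higher and 17.4% lower. After median-of-ratios scaling 6 were higher and 5 lower, when 3130 and 2907 of all 9529 genes were. On the deposited scale the 6 were BID, BAD, BCL2L11, BAK1, BMF and BAX, all known to promote cell death, between 0.50 and 0.90. The call of BAX was lost in 7 of 24 alternatives, that of BAK1 in 3, with 0.18 (deposited-scale adjusted p = 0.452) without the line D library of 0 h, and that of BMF in 2, with 0.35 (deposited-scale adjusted p = 0.2) without that of 12 h. BID had 56.5, 20.1 and 9.11 at 0, 8 and 12 h in line D against 27.1, 13.8 and 3.82 in shNS replicate 1 and 26.7, 12.4 and 3.73 in replicate 2. Of the lower genes BCL2A1, at -0.63 (SE 0.16), and MCL1, at -0.63 (SE 0.17), oppose cell death, whereas BBC3, at -0.43 (SE 0.18), promotes it. MCL1 was not called in 7 of 24 alternatives and BBC3 not in 9. Without the line D library of 8 h MCL1 stood at -0.15 and BBC3 at -0.26 (deposited-scale adjusted p = 0.499 and 0.116). BCL2A1 had 312, 53.7 and 34.7 in line D against 682, 105 and 33.5 in shNS replicate 1 and 614, 94.4 and 34.4 in replicate 2, so that line D was below both replicates at 0 and 8 h and not at 12 h. The median of the family was 0.18, beside 0.02 for all genes.

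Other lists moved in both directions across times, where 18.9% of all genes were called higher and 17.4% lower. Of 12 self-renewal regulators 4 were higher and 1 lower. The lower one was HOXA9, a leukaemia-associated homeobox gene, with 55.9, 11.5 and 4.41 in line D against 113, 39.2 and 10.3 in shNS replicate 1 and 93.1, 33.4 and 10.7 in replicate 2, a difference of -1.18 (SE 0.17). SOX4 was higher at 0.91 (SE 0.18), and MEIS1, the partner of HOXA9, stood at 0.01 (SE 0.18). Of 19 heat shock chaperones 9 were higher, among them DNAJA1 at 1.00 (SE 0.18) and HSP90AA1 at 0.89 (SE 0.16), and 3 were lower, among them HSPD1 at -0.67 (SE 0.16), which was not called without the line D library of 12 h (-0.39, deposited-scale adjusted p = 0.18). Of 19 snoRNA host genes 7 were lower, among them SNHG5 at -1.06 (SE 0.16) and GAS5 at -0.82 (SE 0.16), and 4 were higher, among them SNHG12 at 0.67 (SE 0.18), which was not called without the line D library of 12 h (0.49, deposited-scale adjusted p = 0.0848). Of 13 genes of lipid-laden macrophages 7 were higher, with GPNMB at 1.52 (SE 0.16) and CD63 at 1.00 (SE 0.16), and 3 lower, with PLIN2, the coat protein of lipid droplets and a gene that also responds to hypoxia, at -1.22 (SE 0.17). Of 18 immediate early genes 8 were lower and 2 higher, with EGR1 lowest at -1.39 (SE 0.16). These lists were not independent of earlier results of these data.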
